A study of Jaculus jaculus with 13 samples.

Results

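A set of 71 genes was lower in the kidneys of water-deprived male Jerboas (Jaculus jaculus) than in those of controls, and was about as low in animals that had been given water back. The set was found in a table of 24433 genes, of which 13828 had a mean count of 20 or more. The genes were chosen on the CPM scale (the reads of a gene for every 1000000 reads assigned to genes in that animal). A gene was taken when every dehydrated and every rehydrated animal lay below every control, when the mean of the dehydrated animals was at most 0.7 times the control mean, and when the mean of the rehydrated animals was between 20% below and 25% above that of the dehydrated animals. Genes that the study names by symbol were to be left out, which could be checked only for those it pairs with an identifier, and 0 of these met the rule. All 3 group means went into this choice, so the levels of the 71 genes are given as a description. Tests over all genes include them, and nothing is read from their calls.

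RNA was sequenced from the whole left kidney of wild-caught males. There were 4 control animals with free access to water (CM01, CM03, CM04 and CM06). There were 4 dehydrated animals that had no water for 11 days according to the labels (DHM02, DHM03, DHM05 and DHM06). There were 5 rehydrated animals that had no water for 7 days and then drank freely for 3 days (RHM01, RHM02, RHM04, RHM07 and RHM08). All animals had dry food throughout, and no gene was modified. The study's methods give a slightly shorter restriction for dehydrated males, a longer time with water after restriction, and 5 sequenced males in each group. By either account the rehydrated animals had a shorter restriction than the dehydrated ones. The effect of returning water therefore cannot be told apart from that of the shorter restriction. Between 14071802 and 22949762 reads were assigned to genes in each animal. No 2 libraries of a group agreed within counting noise (chi-square per gene of at least 30.6 over 22 pairs), so none was treated as a library deposited a second time.

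Jerboas are desert rodents that can live without drinking, and their kidney concentrates urine strongly. Water is recovered along the nephron through aquaporin channels: AQP1 lies in the proximal tubule and the thin descending limb, while AQP2 and AQP3 lie in the principal cells of the collecting duct, where vasopressin controls the water permeability. The labelled tissue was checked on the genes that the study pairs with an identifier. AQP1 ranged from 327 to 1069 CPM, AQP2 from 98.7 to 797 CPM and AQP3 from 42.3 to 284 CPM over the 13 animals, so transcripts of both segments were detected in every animal. A whole-kidney sample holds many cell types, and fewer cells of a type cannot be told apart from less RNA per cell.

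The files identify genes by Ensembl numbers of the JacJac1.0 assembly and pair them with no gene symbol. Genes are therefore given by their scaffold, start and end on JacJac1.0, their exons and their level, and only 2 are given by identifier. What most of the 71 genes encode was not determined here. The study grouped genes with correlated levels into modules, named by colours, and prints genes behind the Gene Ontology terms enriched in them. It prints 549 genes in this way, and 4 of the 71 are among them, all under terms of its turquoise module. The other 67 are not printed there, which says nothing of their annotation. A gene with 27 exons on the minus strand of JH725442.1 (39623646 to 39711424) is listed under apical plasma membrane, the face of a tubule cell that meets the forming urine. A gene with 8 exons on JH725440.1 (50391775 to 50939827) is listed under transmembrane transporter activity. A gene with 11 exons on JH725439.1 (21622794 to 21661886) is listed under chemical homeostasis. A gene with 10 exons on JH725437.1 is listed under protein phosphorylation and lipid metabolic process.

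The 71 genes were lowered by different amounts. The dehydrated to control ratio ran from 0.183 to 0.698 with a median of 0.612. It was at or under 0.25 in 3 genes, between 0.25 and 0.5 in 20, between 0.5 and 0.6 in 11 and above 0.6 in 37. After rehydration the ratio to control ran from 0.209 to 0.731 with a median of 0.546. The rehydrated to dehydrated ratio ran from 0.805 to 1.23 with a median of 0.90. It was below 1 in 52 genes and above 1 in 19. All rehydrated animals lay below all dehydrated animals in 0 of the 71 genes (background 14.1% of 13828 genes) and above them in 0 (background 8.69%). The limits that the rule sets on this ratio bear on these counts, and nothing is read from them.

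**Figure D1:**
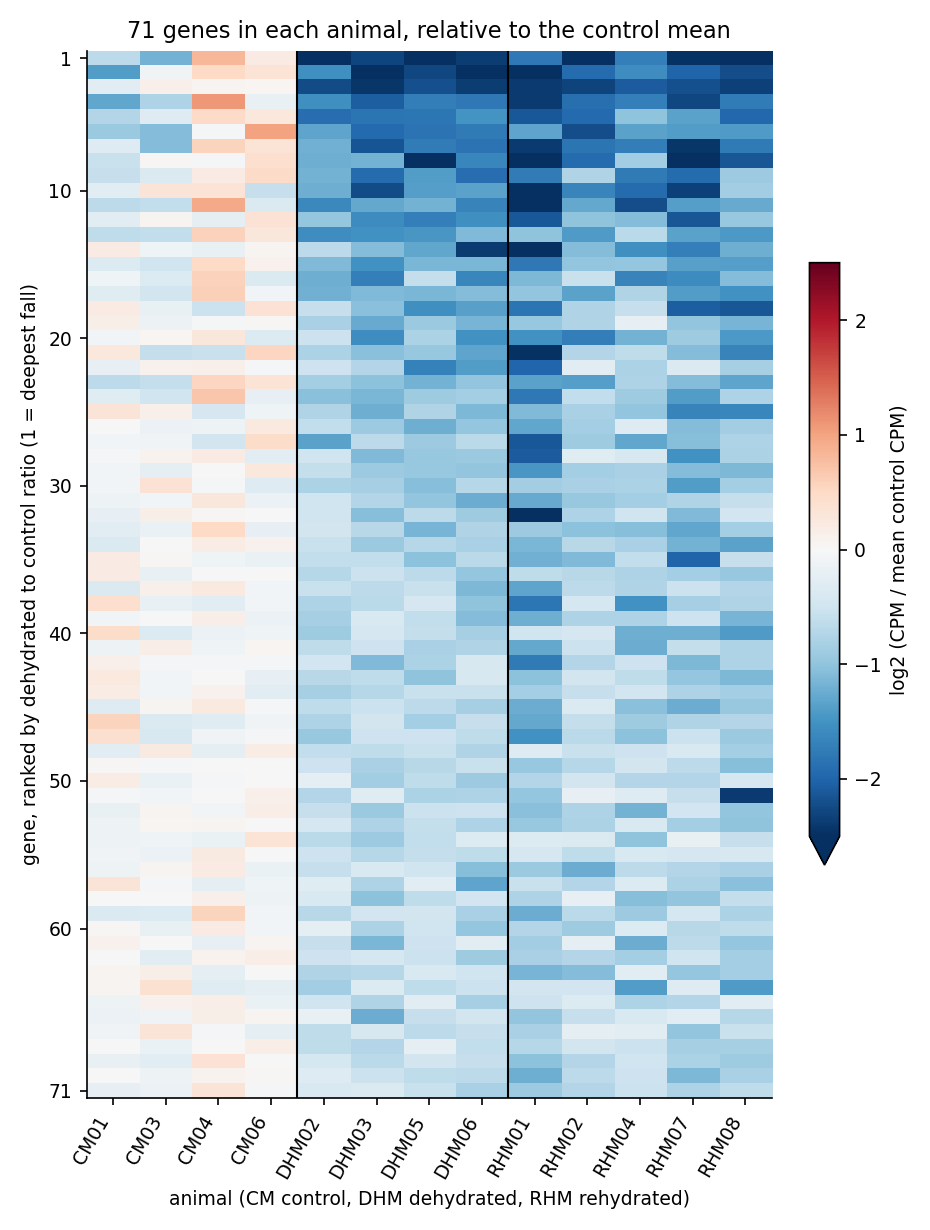
Heat map of the 71 genes (rows, ranked by the dehydrated to control ratio, 1 being the deepest) in the 13 animals (columns), coloured by log2 of CPM over the control mean; the scale stops at 2.5 on either side and 12 cells lie below it. The columns of DHM and RHM animals are blue in every row, with the strongest colour in the upper rows, and CM04 has the strongest red cells among the controls in the upper rows.

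Each animal was summarised over the 71 genes. The median level, as a percentage of the control mean, was 93.2% in CM01, 93.8% in CM03, 105% in CM04 and 99.6% in CM06. It was 62.5% in DHM02, 54.8% in DHM03, 58.2% in DHM05 and 53.1% in DHM06. It was 43.1% in RHM01, 59.9% in RHM02, 56.9% in RHM04, 50.2% in RHM07 and 52.7% in RHM08. The dehydrated and rehydrated animals overlapped, and RHM01 was the lowest of all 13. Over all 13828 genes the same median lay between 97.0% and 105% in every animal.

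The 71 genes together took 7697 ± 1166 CPM in controls (SD, n = 4), 3713 ± 241 CPM in dehydrated animals (SD, n = 4) and 3569 ± 477 CPM in rehydrated animals (SD, n = 5). The highest control was CM04 with 9146 CPM and the lowest was CM01 with 6578 CPM. Of the control sum, 40.6% came from the 5 genes with the highest levels.

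**Figure D2:**
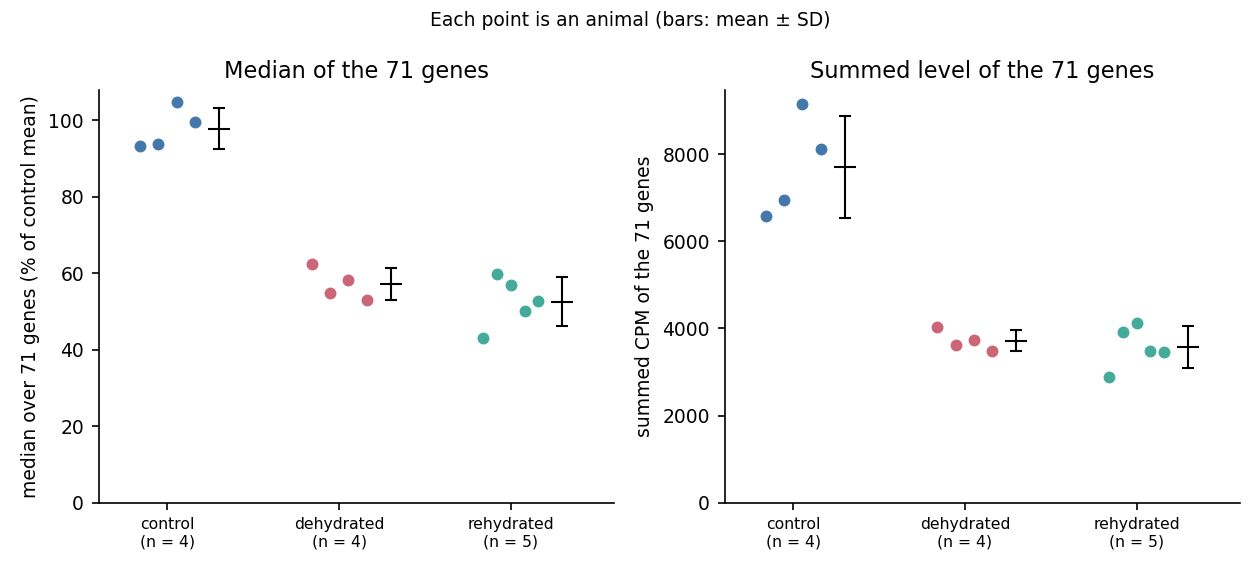
Left, the median of the 71 genes in each animal as a percentage of the control mean; right, their summed CPM; points are animals, and bars give the mean ± SD of each group. The 4 controls lie at 93.2 to 105% and the other 9 animals at 43.1 to 62.5%.

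The deepest difference was in ENSJJAG00000002024, a gene of 3 exons on the plus strand of JH725689.1 (82423 to 84912). Its level was 120 CPM in CM01, 83.2 CPM in CM03, 335 CPM in CM04 and 218 CPM in CM06. In dehydrated animals it was 29.8, 38.3, 33.7 and 36.7 CPM, and in rehydrated animals 54.9, 33.4, 57.8, 34.0 and 32.2 CPM. The controls spread over a wide range and the restricted animals over a narrow one, with a gap between 57.8 and 83.2 CPM. The means were 189 ± 113 CPM (SD, n = 4), 34.6 ± 3.75 CPM (SD, n = 4) and 42.4 ± 12.7 CPM (SD, n = 5). Dehydrated animals thus held 18.3% of the control mean and rehydrated animals 22.5%.

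The widest separation was in a gene of 2 exons and 1218 exonic bases on the plus strand of JH725450.1 (34373970 to 34377838). It stood at 599 CPM in CM01, 786 CPM in CM03, 759 CPM in CM04 and 754 CPM in CM06. The dehydrated animals had 154, 133, 158 and 140 CPM. The rehydrated animals had 138, 145, 172, 158 and 144 CPM. The lowest control was 3.48 times the highest of the other 9 animals, whereas this margin had a median of 1.13 over the 71 genes and was 1.58 in the next gene. Its spread within groups was also small, 0.141 on the log2 scale against a median of 0.282 for the set. The group means were 724 ± 85.1, 146 ± 11.6 and 152 ± 13.4 CPM (SD, n = 4, 4 and 5), and the rehydrated mean was 1.04 times the dehydrated mean. It was also the most abundant of the 71 genes by CPM in controls.

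A gene of 2 exons on the minus strand of JH725472.1 (19992298 to 19998328) was low throughout. It had 8.89, 21.9, 32.8 and 29.7 CPM in CM01, CM03, CM04 and CM06. It had 8.04, 2.65, 4.80 and 3.11 CPM in the dehydrated and 1.35, 6.18, 7.93, 5.83 and 5.03 CPM in the rehydrated animals. The groups were separated only by the step from 8.04 CPM in DHM02 to 8.89 CPM in CM01.

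A gene of 3 exons on the plus strand of JH725459.1 (25503847 to 25506674) owed much of its control mean to a single animal. Its level was 42.5 CPM in CM01, 61.1 CPM in CM03, 222 CPM in CM04 and 92.3 CPM in CM06. It was 36.2, 25.1, 31.6 and 30.2 CPM in dehydrated and 19.9, 28.4, 32.0, 21.7 and 31.3 CPM in rehydrated animals. With all controls the dehydrated to control ratio was 0.295, and without CM04 it was 0.471.

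A gene with a single exon of 786 bases on the plus strand of JH725585.1 (4710952 to 4711737) had 72.8, 96.4, 169 and 146 CPM in the 4 controls. Dehydrated animals had 32.5, 34.3, 34.7 and 43.1 CPM, and rehydrated animals had 28.0, 31.6, 60.7, 48 and 31.1 CPM. Here RHM04 came closest to the controls, yet stayed below CM01.

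The other 7 of the 12 deepest genes stood between 30.9% and 37.6% of the control mean in dehydration. A gene of 15 exons on JH725475.1 (14932988 to 14984276) varied widely among the restricted animals. Its controls had 149, 221, 210 and 290 CPM, while DHM05 had 27.4 CPM against 70.4 to 95.9 CPM in the other dehydrated animals. In rehydration it had 34.5, 57.2, 120, 31.5 and 49.6 CPM, so that RHM04 exceeded each dehydrated animal. A gene of 9 exons on JH725446.1 (22980218 to 23020000) had 33.4 ± 14.9, 10.3 ± 3.02 and 8.36 ± 1.94 CPM (SD, n = 4, 4 and 5). A gene of 7 exons on JH725466.1 (24414227 to 24416140) had low levels throughout, at 5.78 ± 4.14, 1.78 ± 0.357 and 2.04 ± 0.451 CPM. CM06 had 11.7 CPM there against 2.75 to 5.68 CPM in the other controls, and without it the dehydrated to control ratio was 0.467 instead of 0.309. Both remaining low genes lay on JH725462.1. The first, of 4 exons (1580123 to 1596215), had 18.9 ± 6.38, 6.37 ± 1.64 and 7.46 ± 2.89 CPM. The second, of 7 exons (4366904 to 4374712), had 16.4 ± 4.96, 5.83 ± 1.59 and 4.84 ± 2.59 CPM.

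**Figure D3:**
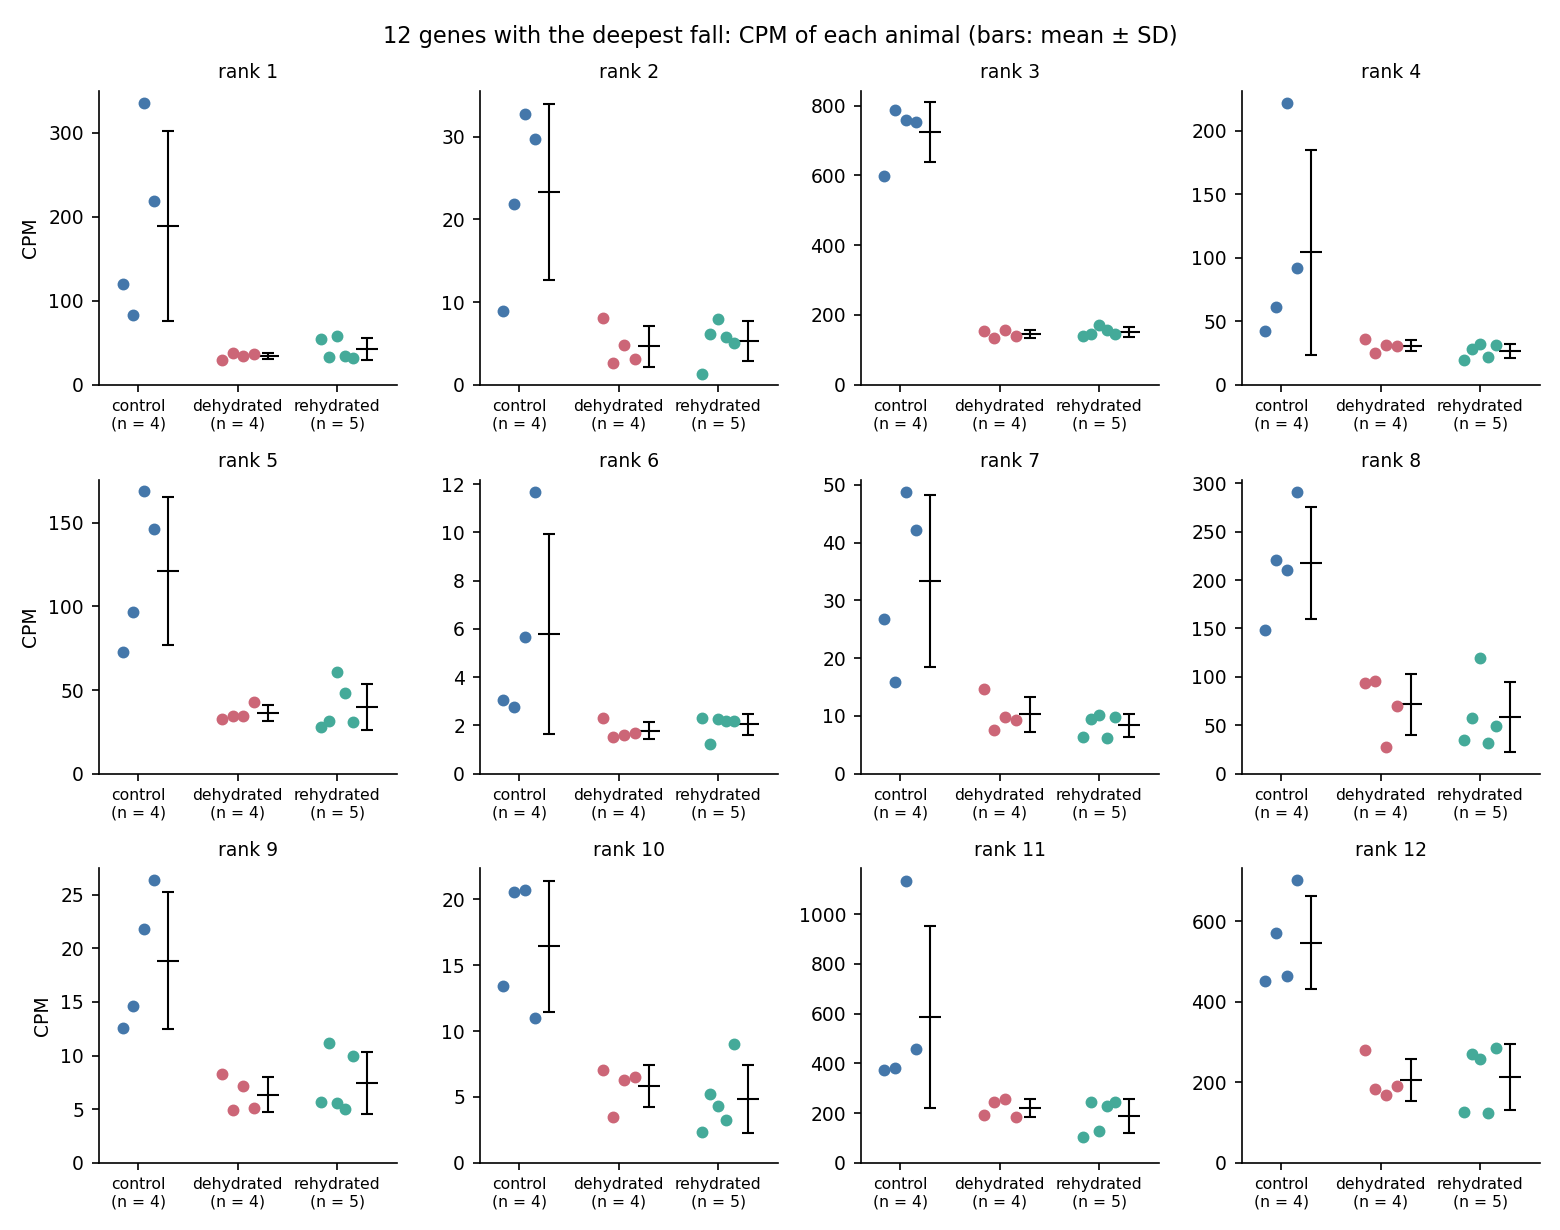
CPM of each animal in the 12 genes with the lowest dehydrated to control ratio, 1 panel a gene, each with its own axis from 0; points are animals, and bars give the mean ± SD. Rank 1 is ENSJJAG00000002024, rank 3 is the gene on JH725450.1 with the wide gap (599 CPM in the lowest control, 172 CPM in the highest other animal), and rank 11 is ENSJJAG00000012290, with CM04 at 1132 CPM.

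Levels were compared between genes per kilobase of exon. On that scale the highest control level of the set was in ENSJJAG00000012290, a gene of 4 exons and 528 exonic bases on the plus strand of JH725444.1 (19959878 to 19962925), at 1110 CPM per kb against a median of 18.8 CPM per kb in the set. In CPM it stood at 374, 382, 1132 and 457 in CM01, CM03, CM04 and CM06. It stood at 193, 243, 257 and 185 CPM in dehydrated and at 103, 243, 126, 227 and 244 CPM in rehydrated animals. CM04 was far above the other controls, and RHM01 and RHM04 were below the other rehydrated animals. The dehydrated to control ratio was 0.374 with CM04 and 0.542 without it.

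The gene on JH725450.1 described above came next, at 595 CPM per kb. A gene of 8 exons on JH725448.1 (7487017 to 7502885) followed at 430 CPM per kb. It had 629 ± 110 CPM in controls, 386 ± 66.3 CPM in dehydrated and 367 ± 68.9 CPM in rehydrated animals (SD, n = 4, 4 and 5). A gene of 8 exons on JH725462.1 (6180893 to 6193454) had 368 CPM per kb in controls. Its controls formed 2 pairs, 271 and 274 CPM in CM01 and CM03 and 627 and 515 CPM in CM04 and CM06, and RHM04 reached 265 CPM, just below the lower pair.

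A gene of 11 exons on JH725482.1 (2574312 to 2664018) had 313 CPM per kb. It had 451, 570, 465 and 702 CPM in controls and 281, 184, 168 and 190 CPM in dehydrated animals. In rehydration it split into a low pair, RHM01 with 126 CPM and RHM07 with 124 CPM, and 3 higher animals with 258 to 286 CPM. The apical plasma membrane gene on JH725442.1 was among the steadiest of the abundant genes. Its controls had 589, 665, 671 and 642 CPM, its dehydrated animals 482, 377, 424 and 378 CPM, and its rehydrated animals 331, 370, 490, 357 and 321 CPM. The highest restricted animal was RHM04 with 490 CPM and the lowest control was CM01 with 589 CPM. Rehydrated animals were at 58.3% of the control mean against 64.7% in dehydration.

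A gene of 11 exons on JH725547.1 (3697099 to 3766941) had 375 ± 32.0 CPM in controls, 184 ± 26.9 CPM in dehydrated and 219 ± 61.3 CPM in rehydrated animals (SD, n = 4, 4 and 5). The rehydrated mean included 323 CPM in RHM04, which was close to the lowest control at 339 CPM, and 169 to 224 CPM in the other 4 animals. A gene of 9 exons on JH725589.1 (3580385 to 3598055) had 265 ± 109, 132 ± 12.5 and 119 ± 22.1 CPM.

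The controls were not alike in these genes. CM04 was the highest control in 33 of 71 genes and the lowest in 10. In 8 genes it exceeded each other control at least 1.5 times, which CM01 did in 1 gene, CM03 in 0 and CM06 in 1. Without CM04, 65 of the 71 genes kept a dehydrated to control ratio at or under 0.7, and the median ratio was 0.609. The variation of the control animals was largest in the deepest genes, with a median coefficient of variation of 40.6% over the 12 deepest genes, 17.2% over the 71 and 13.4% over all 13828 genes. The rule bears on this order, since a gene with a small difference and a wide spread could not meet it.

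The rehydrated animals also differed. RHM01 was the lowest of the 9 restricted animals in 28 genes, and RHM04 was the highest of them in 17. RHM01 also had 1.32% of its counts in the genes that the study prints for enriched terms of its brown module. The other rehydrated animals had 0.266 to 0.352%, and CM01 had 1.76% against 0.209 to 0.333% in the other controls. The study describes many terms of this module as immune related, and names CM01 and RHM01 as driving its variance. Among dehydrated animals DHM03 had 0.633% against 0.292 to 0.393% in the others. None of those 254 genes belonged to the set, which holds only 71 of all 13828 genes, so nothing is read from this. The part of the difference in these brown-module genes in the levels of the 71 genes was not tested. Without RHM01 the median rehydrated to dehydrated ratio was 0.941, and it was above 1 in 26 genes instead of 19. Without RHM02 it was 0.878, and 58 genes kept a ratio within the limits of the rule.

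The gap between groups was narrow in many genes. The lowest control was less than 1.1 times the highest other animal in 28 genes and at least 1.2 times in 21. The smallest margin was 1.01, in a gene of 30 exons on JH725512.1 (5553724 to 5596607), where CM04 had 203 CPM and RHM07 had 202 CPM. Counting depth was not small in most genes: the mean count per animal ran from 25.8 to 9142 with a median of 458, and no gene had an animal at 3 counts or fewer.

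At the limit of 0.7 the last genes taken had dehydrated to control ratios of 0.693 and 0.698, and the first ones left out had 0.702 and 0.706. At the lower limit for the rehydrated to dehydrated ratio the last genes taken had 0.805 and 0.810, and the first left out had 0.796 and 0.796. At the upper limit the last genes taken had 1.203 and 1.225, and the first left out had 1.251 and 1.264.

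A fit over all genes with edgeR's quasi-likelihood test compared the groups with each other at an adjusted p under 0.01. Since the choice of the 71 genes used these same contrasts, their counts are given beside the counts over all genes and nothing is read from them. In dehydrated against control animals 7 of the 71 genes were called lower and 0 higher, with a background of 0.166% of 15064 genes called lower and 0.312% called higher. This number was 15 without RHM01, 4 without CM01, 3 without RHM07, 2 without DHM03 or RHM08, and 1 without CM04, CM06, DHM02, DHM05 or DHM06. In rehydrated against control animals 60 were called lower and 0 higher, with a background of 16.2% called lower and 12.5% called higher. In rehydrated against dehydrated animals 0 were called, with a background of 5.5% called lower and 2.68% called higher. At an unadjusted p under 0.05 these numbers were 69 (background 12.1%), 71 (background 26.2%) and, in rehydrated against dehydrated animals, 0 lower (background 20.9%) and 0 higher (background 17%). With DESeq2 they were 51 (background 3.57%), 66 (background 19.2%) lower than in controls and, in rehydrated against dehydrated animals, 0 lower (background 10.2%) and 0 higher (background 8.24%).

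The median log2 fold change of the 71 genes was -0.76 in dehydrated against control animals, -0.89 in rehydrated against control animals and -0.12 in rehydrated against dehydrated animals, where the medians over all tested genes were 0.00, 0.03 and -0.00. The first pair of these comparisons shares its control animals.

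Shallower genes could be steady within groups, as 3 examples chosen after their values were seen show. A gene of 24 exons on JH725444.1 (3491475 to 3573046) had nearly the same level in every control, 107, 103, 105 and 104 CPM. It had 73.1, 60.1, 64.8 and 71 CPM in dehydrated and 54.0, 63.6, 76.4, 66.8 and 50.2 CPM in rehydrated animals, all below the controls. A gene of 7 exons on JH725439.1 (18105452 to 18114623) had 80.2 ± 8.96, 49.1 ± 5.96 and 46.7 ± 4.05 CPM (SD, n = 4, 4 and 5). A gene of 9 exons on JH725538.1 (6260283 to 6271272) had 84.7 ± 12.6, 46.9 ± 5.98 and 40.9 ± 7.00 CPM.

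The set was compared with the other genes that met the first parts of the rule. Of 13828 genes, 953 (6.89%) had every dehydrated and rehydrated animal below every control, and 396 of these had a dehydrated to control ratio of at most 0.7. In 320 of the 396 the rehydrated mean was under 0.8 times the dehydrated mean, so the level was lower still after rehydration. In 5 it was more than 25% above the dehydrated mean, a partial return that still left every animal below the controls. The 71 genes were thus 17.9% of the 396 on this scale. With counts divided by DESeq2 size factors the numbers were 130 of 561 (23.2%), with the length offset 133 of 512 (26.0%), without DHM02 130 of 558 (23.3%), without CM03 111 of 509 (21.8%) and without CM01 and RHM01 138 of 478 (28.9%). The median dehydrated to control ratio was 0.612 in the 71 genes and 0.623 in the 320, while the median rehydrated to control ratio was 0.546 and 0.347.

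**Figure D4:**
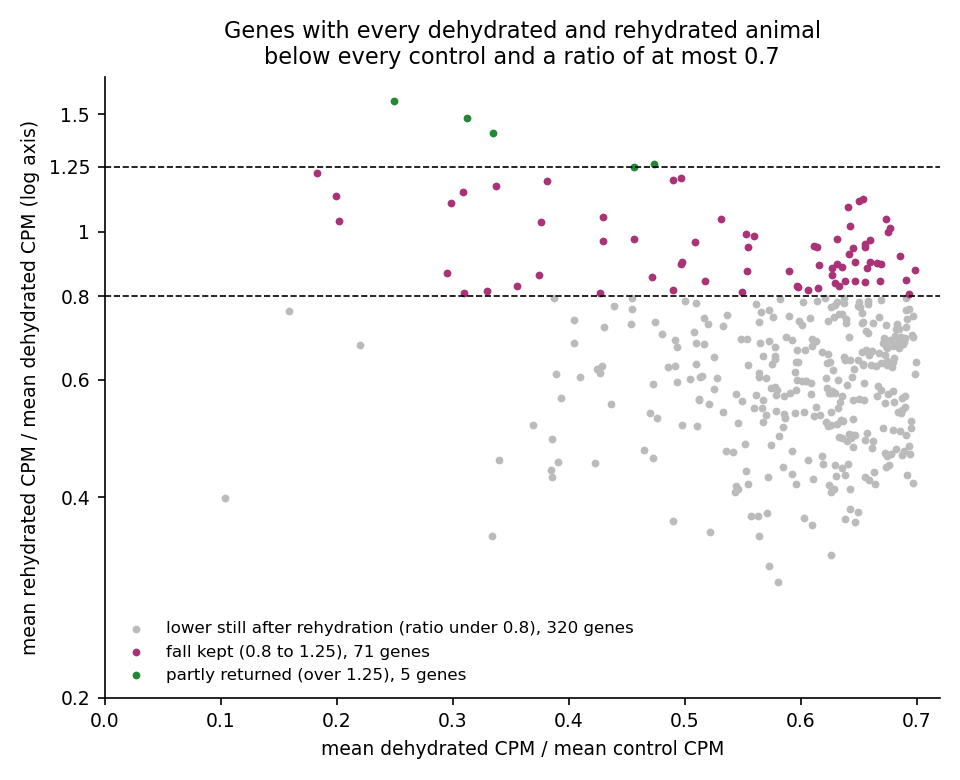
Mean rehydrated over mean dehydrated CPM (log axis) against mean dehydrated over mean control CPM for the 396 genes with every dehydrated and rehydrated animal below every control and a ratio of at most 0.7; each point is a gene. The band between the dashed lines, at 20% below and 25% above 1, holds the 71 genes, with 320 genes below it and 5 above it.

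Some features of the genes were not used directly by the rule. The median exonic length was 1460 bases in the 71 genes, 1815 bases in the 320 genes that were lower still and 1349 bases in all 13828 genes. The median number of exons was 7, 9 and 8, and the median span on the scaffold was 21188, 47724 and 18095 bases. Genes with a single exon made up 9.86% of the set (7 genes), 4.06% of the 320 and 5.64% of all. These values are descriptions over genes and were not tested.

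Level and length were related in the comparison with rehydrated animals. Over all genes the median rehydrated to control ratio went from 1.16 in genes of up to 500 exonic bases to 0.868 in genes over 4000, whereas the median dehydrated to control ratio went from 1.05 to 0.976. The genes of the set made up 0.357% of genes of up to 500 bases, 0.352% of those of 501 to 1000, 0.689% of those of 1001 to 2000, 0.546% of those of 2001 to 4000 and 0.308% of those over 4000. The 320 genes made up 0.891% of the shortest class and 3.59% of the longest. The set had no such steady course with length. The limits that the rule sets on the rehydrated to dehydrated ratio bear on this contrast with the 320 genes, so nothing is read from it. The part of the length trend in the values of the set was not tested. The study reports lower RNA integrity values for rehydrated samples than for the other groups. From the clustering of samples by group, it proposes that RNA integrity was not a main driver of the differences between groups. The part of RNA integrity in the length trend was not tested. With an offset for gene length in each animal the rule found 133 genes, and 57 of the 71 were among them.

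The genes were spread over 53 scaffolds of JacJac1.0. Of these, 13 held more than 1 gene of the set, and JH725462.1 held the most with 4. On a scaffold, 4 pairs lay within 1 Mb of each other, the closest being 2 genes of 27 and 29 exons on JH725486.1, 195.8 kb apart with 2 other genes between them. Among 140 flanking genes with a mean count of 20 or more, 0 belonged to the set, beside 71 of all 13828 genes, and nothing is read from this 0. In 9 flanking genes (6.43%) every dehydrated and rehydrated animal lay below every control, against 6.89% of all genes. A dehydrated to control ratio at or under 0.7 was found in 16 flanking genes (11.4%), against 8.11% of all genes. The median dehydrated to control ratio of the flanking genes was 0.981 against 1.03 over all genes, and the median rehydrated to control ratio was 0.917 against 1.02. That no gene of the set had another gene of the set as its immediate measured neighbour restates the 0 above.

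1 gene of the set shared exon bases with another gene, so reads could not always be assigned to it alone, and 1 gene had an annotated exon length of only 18 bases, which makes its level per kilobase uninterpretable.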

How the data were processed

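Poly(A) RNA from whole left kidneys was sequenced in 13 labelled male animals. The deposited table holds raw counts per gene, which the authors made by aligning paired reads with Rsubread and counting with featureCounts 1.6.2 (Subread package) against the Ensembl 99 annotation of JacJac1.0; the counting command in the file header sets no strand option. 2 per-sample columns, named as a control and a dehydrated animal, had no sample label and were not used, so the rule was not applied to them. CPM was each count over its column sum. Group comparisons used edgeR 4.0.16 (quasi-likelihood, TMM scaling, 1 fit over the 3 groups, mean count at least 8, Benjamini-Hochberg adjusted p under 0.01), with DESeq2 1.42.0 as an alternative, in R 4.3.3. In simulated counts for dehydrated against control animals, edgeR called 44% of genes made 2-fold lower and 72% of genes made 4-fold lower. DESeq2 called 59% and 79% of them. Among unchanged genes edgeR called 1 lower and DESeq2 called 9. Separate animals were replicates. The genes, lists and rules were chosen with earlier results of these data known. The rule for single genes (the 12 lowest dehydrated to control ratios at a mean count of at least 50 and the 8 highest control levels per kb) asked for symbols, which the files do not pair with the identifiers, so it was applied without them and gave 17 genes; gene and marker lists by symbol and sequences were not used here. Same-numbered animals deviated together in some pairs only (r from -0.03 to 0.38 over 5 pairs), so the numbers were not taken to pair animals.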

Additional observations from a re-analysis of the deposited data

Results flagged for a closer look

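Among 57 groups of animals examined (17 genes singly, the median over the 71 genes and their summed CPM, in 3 groups each), 2 held an animal whose distance from its nearest neighbour was a larger part of the group's range than Dixon's 95% critical value. Chance gives about 1 such group in 20, which is 2.85 of 57. In ENSJJAG00000012290 the control CM04 stood at 1132 CPM, with the next control at 457 CPM (gap over range 0.890). In the gene of 7 exons on JH725466.1 (24414227 to 24416140) RHM02 had 1.246 CPM, with the next rehydrated animal at 2.17 CPM and the highest at 2.33 CPM (gap over range 0.855).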

How the results depend on the processing

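The number of genes that met the rule depended on scaling and limits. It was 71 on the column-sum scale, 130 with counts divided by DESeq2 size factors (68 of the 71 among them), 34 with a dehydrated to control ratio of at most 0.6, 129 with at most 0.8, 27 with a rehydrated mean between 10% below and 11% above the dehydrated mean, 133 with an offset for gene length (57 of the 71) and 138 without CM01 and RHM01 (65 of the 71). With 1 animal left out in turn it was 65 to 130, and 56 to 69 of the 71 genes were found again. The highest, 130, was reached without DHM02 and the lowest, 65, without DHM03 or RHM02. 25 genes met the rule in each of these 13 settings and 46 lost it in at least 1.

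Genes called in dehydrated against control animals numbered 72, of which 7 belonged to the set. They numbered 958 (51 of the set) with DESeq2, 124 (11) with the length offset and 141 (12) without CM01 and RHM01, the last an alternative added after seeing the data. Leaving out 1 animal gave 1 to 235 (1 to 15), the fewest without CM06 and the most without RHM01. In rehydrated against control animals 4331 genes (60) were called and 3334 to 4491 (43 to 60) with 1 animal left out. In rehydrated against dehydrated animals 1233 (0) were called, 2785 with DESeq2, and 380 (without DHM02) to 2005 (without RHM02) with 1 animal left out. The limits that the rule places on this ratio bear on the 0 of the set in each setting, and nothing is read from it.

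With the animal number as a replicate block, which the check of pairing did not call for, the counts were 0 (0 of the set), 987 (14) and 0 in the 3 comparisons. At an unadjusted p under 0.05 the edgeR fit with the block had 64, 66 and 0 of the set lower in the 3 comparisons, beside 11.3%, 22.8% and 11.8% of all 15064 genes lower.

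Over the 17 genes given singly and 2 comparisons with the controls, 646 alternative estimates were made and 0 changed direction, which the choice of genes with every restricted animal below every control largely fixes and which is no sign of stability. 55 lost the adjusted p under 0.01, 22 gained it and 569 kept their side. Without CM04 the log2 fold change of ENSJJAG00000012290 was -0.93 in dehydration instead of -1.47. The causes of these differences were not tested. The lowest count of a gene of the set in an animal was 5.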
